A study of Drosophila melanogaster with 12 samples.

Results

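The 105 genes described here have a CG number, an identifier of annotated Drosophila genes, as their only symbol in the deposited table. All 105 had higher RNA levels at the highest dose of the moulting hormone than without it. They were found among 4092 CG-numbered genes of a table of 12216 genes. Membership required a mean of at least 50 normalised counts at 2000 nM 20-hydroxyecdysone (20E), a log2 ratio of the 2000 to the 0 nM mean of at least 1 after adding 1 to both, and a lowest 2000 nM library above the highest 0 nM library. The differences between 0 and 2000 nM therefore chose the members and are given as a description. The discs came from w1118 larvae, the strain used as wild type, raised at 25°C, and were dissected 24 h after the moult into the last larval instar. Each of the 4 groups, cultured for 2.5 h with 0, 20, 200 or 2000 nM 20E, had 3 libraries. All groups shared the strain, the stage and the culture, so the 0 nM discs are cultured discs without added hormone. The labels do not say whether the libraries of a dose came from separate animals or cultures, and the p-values therefore describe spread between libraries alone, which may be technical.

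20E enters cells, where the ecdysone receptor EcR and its partner Ultraspiracle bind it and act on transcription. The receptor pair holds target genes down without the hormone and activates them with it, and the early targets include many transcription factors that act on further genes in turn. In the wing disc, the larval epithelium that forms the adult wing, the hormone is known for its part in growth, patterning and the later change of shape and cuticle secretion.

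The libraries held 9034719 to 27006374 reads, and a single read equalled 0.565 to 1.69 normalised counts. All 11 wing disc marker genes were detected, with sums of 32717 to 48585 normalised counts per library, and 4 of them rose from 20 to 200 nM. Of 20 tested genes of an ecdysone response list, such as Eip75B and Hr4, 12 rose and 5 fell from 20 to 200 nM. Libraries that chose the members differed within their dose. 0 nM replicate 3 was lower than both other 0 nM libraries by at least 1.5 times in 20 members, and 0 nM replicate 2 was that much higher than both others in 17. 2000 nM replicate 3 was at least 1.5 times both other 2000 nM libraries in 19 members, while replicate 1 was so in 0 and replicate 2 in 1. Among 8455 genes, 5.27% were that high in 2000 nM replicate 3, 1.03% in 2000 nM replicate 1 and 1.09% in 2000 nM replicate 2. For 0 nM replicate 2 this share was 3.89%, and the share of genes that low in 0 nM replicate 3 was not computed. The measurement is of bulk tissue, in which more cells of a type and more RNA per cell cannot be told apart.

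All 105 members were found in the reference annotation as protein-coding genes, and 27 of them had a name or synonym other than a CG number in the current annotation or RefSeq. The mean level ranged from 0 to 2325 normalised counts at 0 nM, with 24 members below 20, and from 51.65 to 7708 at 2000 nM. The log2 ratio that chose them had a median of 1.95 and ran from 1.01 to 6.55, with 50 members at 2 or more and 21 at 4 or more. Just inside the limit on the ratio lay CG42741 at 1.01 and CG13920 at 1.04, and just outside it CG34347 at 0.997 and CG5618 at 0.99. Just inside the limit on the mean at 2000 nM lay CG30414 with 51.65 and CG7131 with 53.2 normalised counts, and just outside it CG13196 with 49.8 and CG17329 with 48.2. For the separation of the libraries, CG31817 passed with a gap of 2.53 normalised counts between its highest 0 nM and lowest 2000 nM library and CG10041 with 2.67. CG14937, with a gap of −1.35, and CG1909, with −25.05, missed it because libraries of the doses overlapped. In all, 171 further CG-numbered genes missed only the limit on the mean, 349 only the limit on the ratio and 8 only the separation.

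**Figure D1:**
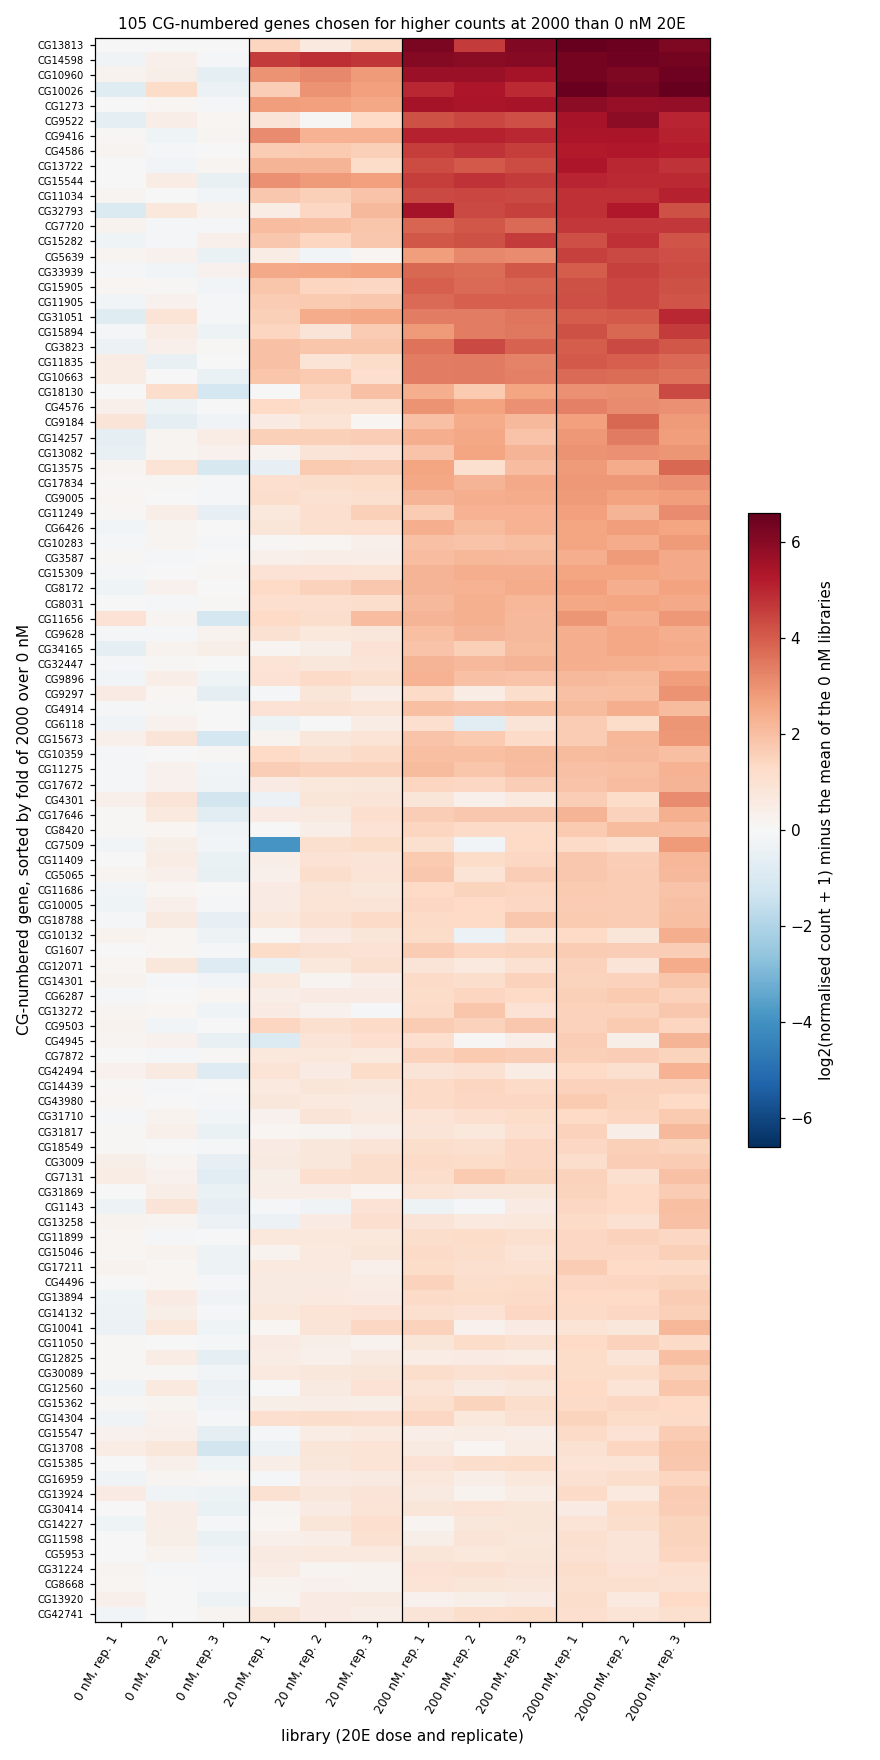
Each row is a member and each column a library, grouped by 20E dose; colour gives log2(normalised count + 1) minus the mean of the 0 nM libraries, and rows are sorted by the ratio of 2000 to 0 nM that chose the members. Most rows deepen in colour from 20 to 200 nM, and CG14598 is already strongly coloured at 20 nM, with 74.4% of its log2 rise.

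The step from 20 to 200 nM used only libraries that had no part in choosing the members. Over that step 68 of the 105 members rose, none fell and 37 did not pass the test, among them 30 with a positive and 7 with a negative log2 fold change. Of all 8155 genes tested, 4.55% were called higher and 3.92% lower (limma on log2(normalised count + 1), two-sided, Benjamini-Hochberg adjusted p under 0.05). The median log2 fold change was 0.79 for the members and 0.0012 for all genes tested. All 105 members had passed the filter of at least 10 normalised counts in at least 3 of the 6 libraries. In 3 members, CG13813, CG9522 and CG32793, no 20 nM library reached 10, so they were tested only because their 200 nM libraries did. Without them 65 of 102 members rose. Together with CG15894, CG9184, CG13575 and CG7509 they made 7 members with fewer than 3 20 nM libraries at 10 or more. These 7 needed 200 nM libraries to pass the filter, and 5 of them were called higher. The count of members lower was 0 also at an unadjusted p under 0.05 and with limma-voom. Of the 68 that rose, 37 did so by at least 2-fold and 16 by at least 4-fold. Both counts include CG13813, CG9522 and CG32793, whose changes are given below as a description. The smallest log2 fold change of the 68 was 0.37 in CG30089, which did not pass without 200 nM replicate 3 (limma adjusted p = 0.0506). The median SE was 0.16 for the members and 0.10 for all genes tested.

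**Figure D2:**
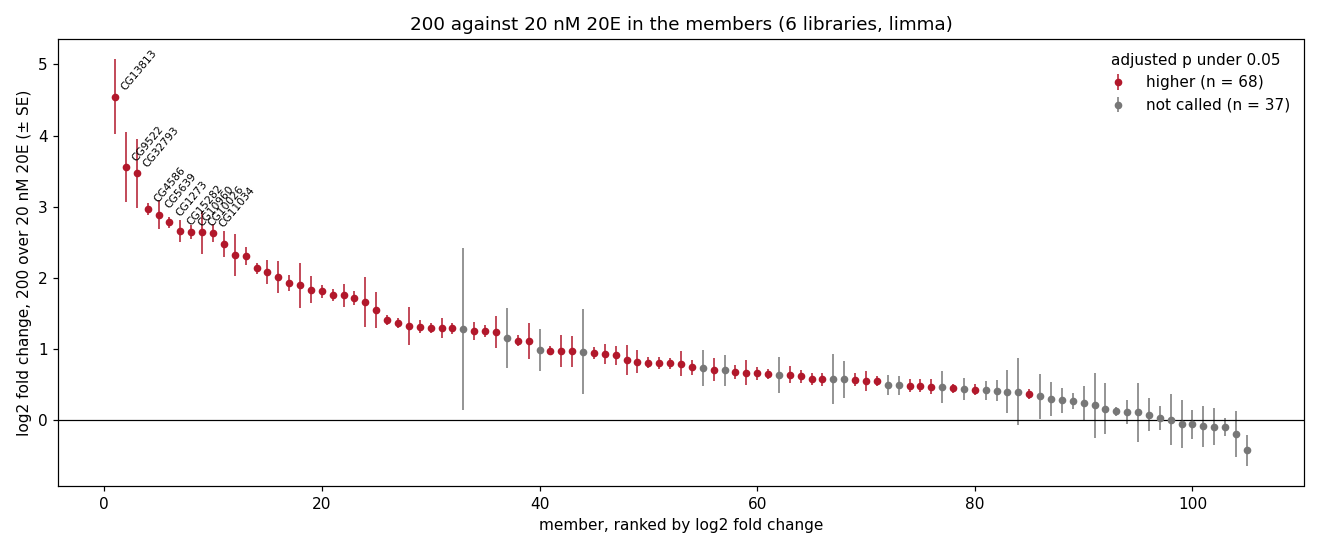
Points give the log2 fold change of 200 over 20 nM for each member, ranked from high to low, with bars of ± SE (3 libraries per dose); red points passed an adjusted p of 0.05. The 68 members that rose fill most of the left and centre, from 4.54 in CG13813 down to 0.37 in CG30089, and all 7 negative values lie among members that were not called. CG13813 passed the filter through its 200 nM libraries alone, and CG30089 did not pass without 200 nM replicate 3.

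Members with synonyms are described by role, in groups made after their values had been seen and with no test of any group. Of 4 with the synonym of a transporter, which moves small molecules across membranes, 4 rose from 20 to 200 nM, against 64.8% of all members, and the calls of CG18549 and CG17646 did not hold in every fit. The gene listed as CG10960, now named nebu and with the RefSeq synonym GLUT8 of a sugar transporter, had 41.9, 45.8 and 22.8 normalised counts at 0 nM, 282, 329 and 254 at 20 nM, 1861, 1906 and 1632 at 200 nM and 2865, 2573 and 3083 at 2000 nM. No dose overlapped with the next, and its log2 fold change from 20 to 200 nM was 2.64 ± 0.10 (SE, limma adjusted p = 1.21e-07). CG7720, with the synonym dSLC5A1 of a family of sodium-coupled solute carriers, had 40.6, 32.0 and 31.6 normalised counts at 0 nM, 147, 141 and 126 at 20 nM, 514, 597 and 478 at 200 nM and 886, 889.9 and 894 at 2000 nM. Its 3 libraries at 2000 nM were close together, the 4 doses were apart in order, and the 20 to 200 nM change was 1.93 ± 0.11 (SE, limma adjusted p = 1.76e-06).

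CG18549 carries the synonym MFSD11, a member of the major facilitator superfamily of transporters. It had 395, 386 and 354 normalised counts at 0 nM, 555, 639 and 687 at 20 nM, 845, 801 and 961 at 200 nM and 989.7, 1119 and 1066 at 2000 nM. The doses were apart in order, and the change from 20 to 200 nM was 0.47 ± 0.10 (SE, limma adjusted p = 0.0135). CG17646, with the synonym ABCG1 of an ATP-driven exporter that moves sterols in mammals, had 18.3, 27.7 and 10.1 normalised counts at 0 nM, 25.3, 27.1 and 37.9 at 20 nM, 55.0, 61.2 and 60.9 at 200 nM and 85.9, 52.2 and 93.9 at 2000 nM. Its 20 nM libraries overlapped with those at 0 nM and its 200 nM libraries with those at 2000 nM, and the change between 20 and 200 nM was 0.97 ± 0.22 (SE, limma adjusted p = 0.0211). Without 200 nM replicate 3 the adjusted p was 0.0765 for CG18549 and 0.0975 for CG17646, and the call of CG17646 also ended without 20 nM replicate 2 (0.0891), without 200 nM replicate 2 (0.0698) and in a fit of all 12 libraries (0.0925).

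Serine proteases cut other proteins and act in the extracellular space in many insect tissues, and homologues without an active site also exist. Among 6 members with such synonyms, grouped likewise after their values had been seen, 3 rose from 20 to 200 nM and 3 did not pass the test. Of all members, 64.8% rose. CG4914 (SP39) had 541, 604 and 548 normalised counts at 0 nM, 1093, 1143 and 1052 at 20 nM, 2227, 2046 and 2202 at 200 nM and 2387, 3016 and 2438 at 2000 nM. It was the most abundant of the 6 per length of exon, with 1577 normalised counts per kilobase at 2000 nM, its doses did not overlap, and its change from 20 to 200 nM was 0.98 ± 0.07 (SE, limma adjusted p = 5.82e-06). CG10663 (SP30) had 23.6, 15.98 and 12.02 normalised counts at 0 nM, 60.7, 56.5 and 36.5 at 20 nM, 179, 189.5 and 175 at 200 nM and 237, 224 and 212 at 2000 nM. Its doses were also apart in order, with a change from 20 to 200 nM of 1.84 ± 0.19 (SE, limma adjusted p = 1.55e-04).

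CG8172 (SP32) had 13.1, 20.2 and 16.4 normalised counts at 0 nM, 42.2, 48.6 and 58.2 at 20 nM, 81.7, 83.6 and 93.3 at 200 nM and 111, 90.1 and 107 at 2000 nM. Only 200 and 2000 nM overlapped, and the change from 20 to 200 nM was 0.79 ± 0.18 (SE, limma adjusted p = 0.0196). Its adjusted p was 0.0750 without 20 nM replicate 2 and 0.101 without 200 nM replicate 3. The 3 that did not pass were CG10041 (SP178), CG30414 (SP62) and CG14227 (SPH158, a homologue). CG10041 had 20.9, 44.7 and 22.1 normalised counts at 0 nM, 30.4, 50.3 and 71.7 at 20 nM, 80.1, 34.3 and 40.6 at 200 nM and 53.1, 47.4 and 131 at 2000 nM. Every dose overlapped with the next, 2000 nM replicate 3 stood above all other libraries, and the log2 fold change from 20 to 200 nM was 0.01 ± 0.36 (SE, limma adjusted p = 0.995). It was 0.30 ± 0.24 (SE, limma adjusted p = 0.59) for CG30414 and −0.09 ± 0.29 (SE, limma adjusted p = 0.93) for CG14227. All 3 no longer met the membership rule when 2000 nM replicate 3 was left out.

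A pair of members belongs to the glucose-methanol-choline family, oxidoreductases that use a flavin cofactor. CG9522 (GMCiota1) was close to silent at the low doses, with 0, 1.07 and 0.632 normalised counts at 0 nM, 1.69, 0.565 and 2.71 at 20 nM, 26.7, 31.3 and 27.4 at 200 nM and 65.0, 88.5 and 47.3 at 2000 nM. The 200 nM libraries lay above all libraries of 0 and 20 nM and below all of 2000 nM. The log2 fold change from 20 to 200 nM was 3.56 ± 0.50 (SE), given as a description because the gene passed the filter through its 200 nM libraries alone. With only 2 reads in the 3 libraries of 0 nM, its ratio to 0 nM was 46.6 at 200 nM (95% interval 12.4 to 392.5, exact) and 102.8 at 2000 nM (28.1 to 854). These intervals cover counting error only and not the spread between libraries. The rule used the 0 and 2000 nM libraries, so the ratios and intervals are a description. CG9503 (GMCalpha1) had 60.2, 45.8 and 49.95 normalised counts at 0 nM, 140.0, 108 and 127 at 20 nM, 166, 152 and 183 at 200 nM and 153, 175 and 139.7 at 2000 nM. Its 20 nM libraries were all above 0 nM and its 200 nM libraries above 20 nM, while 200 and 2000 nM overlapped, and the change from 20 to 200 nM did not pass (log2 fold change 0.42 ± 0.14 SE, limma adjusted p = 0.101).

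Among the other members with a name, the gene listed as CG9005, now atos, known for a role in the tissue invasion of embryonic macrophages, had the highest mean count of the members at 2000 nM, not corrected for length. It had 1269.8, 1115 and 1057 normalised counts at 0 nM, 2575, 2332 and 2345 at 20 nM, 5459, 6067 and 6308 at 200 nM and 8172, 7130.2 and 7821 at 2000 nM. The 4 doses were apart in order and the change from 20 to 200 nM was 1.30 ± 0.07 (SE, limma adjusted p = 1.69e-06). CG15309, now Ypel of the yippee-like family, had 408, 461 and 482 normalised counts at 0 nM, 885, 861 and 848 at 20 nM, 2111, 2409 and 2405 at 200 nM and 2738, 2752 and 2592 at 2000 nM. Its doses did not overlap either, with 1.41 ± 0.07 (SE, limma adjusted p = 7.41e-07).

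CG11835, now uncNacbeta, had 40.6, 20.2 and 27.8 normalised counts at 0 nM, 111, 54.8 and 66.3 at 20 nM, 303, 319 and 284 at 200 nM and 492, 446 and 398 at 2000 nM, and rose from 20 to 200 nM (log2 fold change 2.01 ± 0.22 SE, limma adjusted p = 1.99e-04). CG8031 has the synonym dMEMO, after a mammalian protein known from cell motility. It had 204, 178 and 211 normalised counts at 0 nM, 430.1, 421 and 442 at 20 nM, 881, 1009 and 917 at 200 nM and 1167, 1190.2 and 1109 at 2000 nM, and 1.11 ± 0.08 (SE, limma adjusted p = 7.11e-06) between 20 and 200 nM. Both genes had all 4 doses apart in order. CG8668, a glycosyltransferase by its synonyms dbeta3GnT and GalT4, had 593, 539 and 513 normalised counts at 0 nM, 649, 674 and 649 at 20 nM, 1014, 952 and 927 at 200 nM and 1156, 1143 and 1099 at 2000 nM. It was among the smaller but tighter changes, with 0.55 ± 0.07 (SE, limma adjusted p = 5.44e-04) and no overlap between doses. CG5065 (FAR1), with the synonym of reductases that make fatty alcohols from acyl-CoA, had 77.2, 86.3 and 48.7 normalised counts at 0 nM, 86.0, 153 and 131 at 20 nM, 240.3, 128 and 213 at 200 nM and 240.3, 219.7 and 308 at 2000 nM. Each dose overlapped with the next and the change from 20 to 200 nM did not pass (log2 fold change 0.64 ± 0.26 SE, limma adjusted p = 0.196), although it did without 200 nM replicate 2, the lowest at that dose (adjusted p = 0.0418).

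Several of the largest changes between 20 and 200 nM were in members for which no role is given here, most of them without a synonym in the RefSeq table. CG13813 (synonym Dro38-1) had no read in any 0 nM library and 1.69, 0.565 and 1.35 normalised counts at 20 nM, 72.2, 23.9 and 68.0 at 200 nM and 122, 86.9 and 69.8 at 2000 nM. Against a floor of 3 reads over the 0 nM group, its level was at least 61.6-fold higher at 200 nM and at least 105.8-fold higher at 2000 nM. These bounds cover counting error only and are a description for CG13813, since the rule used the 0 and 2000 nM libraries. From 20 to 200 nM its log2 fold change was 4.54 ± 0.53 (SE), on a scale where the added 1 lowers the change of such scarce RNA. Like CG9522 and CG32793, it passed the filter through its 200 nM libraries alone, so that the change is given as a description. CG4586 had 79.9, 63.9 and 68.3 normalised counts at 0 nM, 231, 239 and 209 at 20 nM, 1689.8, 1939 and 1711 at 200 nM and 2719, 2763 and 2628 at 2000 nM. It had the smallest adjusted p of the members together with CG1273, with 2.97 ± 0.09 (SE, limma adjusted p = 2.63e-08) for 200 against 20 nM and no overlap at any dose.

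CG1273 had 28.8, 32.0 and 25.9 normalised counts at 0 nM, 197, 192 and 174 at 20 nM, 1333, 1257 and 1286 at 200 nM and 1758, 1588 and 1658 at 2000 nM. Its levels were as tightly grouped, with 2.78 ± 0.08 (SE, limma adjusted p = 2.63e-08). CG10026 had 2.62, 13.8 and 3.79 normalised counts at 0 nM, 18.6, 48.1 and 40.6 at 20 nM, 198, 252 and 192 at 200 nM and 579, 492 and 669.8 at 2000 nM. Its log2 ratio by the rule was 6.23, the doses did not overlap, and it changed by 2.64 ± 0.30 (SE, limma adjusted p = 2.78e-04) from 20 to 200 nM. CG5639 had 27.5, 28.8 and 17.1 normalised counts at 0 nM, 33.7, 20.9 and 25.7 at 20 nM, 169.6, 222 and 216 at 200 nM and 575, 517 and 479 at 2000 nM. Its 0 and 20 nM libraries overlapped and both lay far below 200 nM, with a change from 20 to 200 nM of 2.89 ± 0.20 (SE, limma adjusted p = 8.21e-06).

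CG32793 had 0, 2.13 and 1.26 normalised counts at 0 nM, 1.69, 3.96 and 7.44 at 20 nM, 84.8, 38.8 and 43.6 at 200 nM and 54.3, 74.3 and 34.5 at 2000 nM. It was near the floor of detection at 0 and 20 nM, its 200 and 2000 nM libraries overlapped, and the log2 fold change from 20 to 200 nM, a description for the same reason as in CG13813, was 3.47 ± 0.48 (SE). CG15282 rose by 2.66 ± 0.15 (SE, limma adjusted p = 1.58e-06) and CG11034 by 2.63 ± 0.13 (SE, limma adjusted p = 6.59e-07) on the log2 scale over the same step. CG14598 had 23.6, 35.2 and 25.9 normalised counts at 0 nM, 705, 829 and 746 at 20 nM, 1954, 1784 and 1834 at 200 nM and 2287, 2426 and 2276 at 2000 nM. It had the second largest ratio of 2000 to 0 nM by the rule, a log2 value of 6.32. Its 20 nM mean was already 26.1 times its 0 nM mean after adding 1 to both, the doses were apart in order, and from 20 to 200 nM it changed by 1.29 ± 0.08 (SE, limma adjusted p = 2.23e-06).

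**Figure D3:**
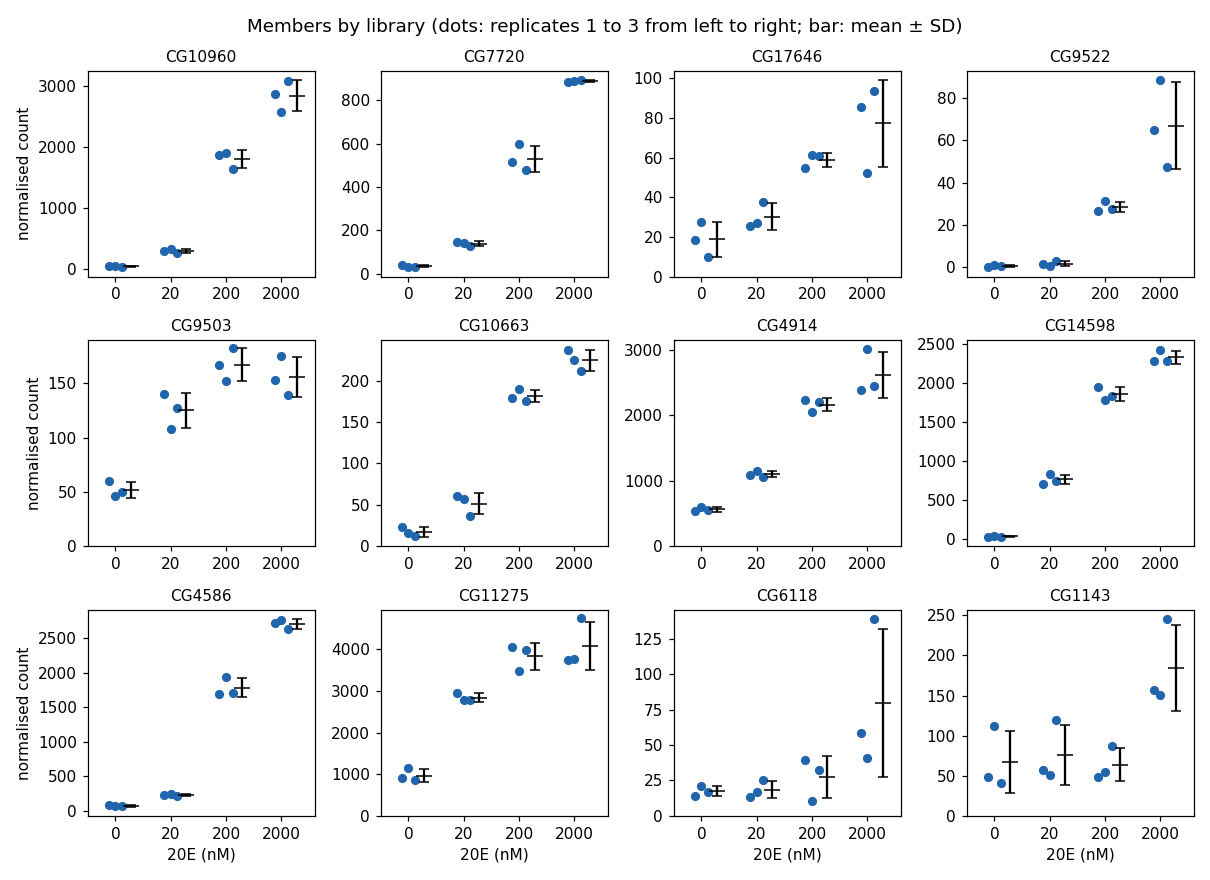
Normalised counts of 12 members by 20E dose; dots are the 3 libraries of a dose in the order of their replicate numbers and the bar beside them is the mean ± SD. CG7720, CG4586 and CG10663 step up at each dose without overlap, CG9503 overlaps between 200 and 2000 nM, and CG6118 and CG1143 are set apart mainly by their 2000 nM libraries, with replicate 3 the highest at 139 and 246.

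Per kilobase of exon, a scale on which members can be compared, the highest levels at 2000 nM were 2450 normalised counts per kilobase in CG11275, 2314 in CG9628, 2258 in CG6287 and 2005 in CG11899. CG10005, CG14598, CG10359, CG11686, CG15282 and CG4914 followed with 1914 down to 1577. At 0 nM these 10 genes differed far more on the same scale, from 22.9 in CG14598 and 72.8 in CG15282 to 744 in CG11899. All 10 rose from 20 to 200 nM. CG11275 had 898, 1154 and 852 normalised counts at 0 nM, 2953, 2783 and 2777 at 20 nM, 4053, 3466 and 3978 at 200 nM and 3731, 3760.3 and 4741 at 2000 nM. Its 20 nM libraries were already all above 0 nM, its 200 and 2000 nM libraries overlapped, and from 20 to 200 nM it changed by 0.43 ± 0.07 (SE, limma adjusted p = 0.0042). CG6287 changed by 0.81 ± 0.07 (SE, limma adjusted p = 6.41e-05) and CG11899 by 0.45 ± 0.07 (SE, limma adjusted p = 0.00153) over that step.

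The lowest dose was also set against no hormone, as a description, since the 0 nM libraries had a part in choosing the members. All 20 nM libraries were above all 0 nM libraries in 66 of the 105 members, against 9.11% of all genes. At the other end, all 2000 nM libraries were above all 200 nM libraries in 64 members, against 7.52% of all genes. All 4 doses were apart in order in 41 members, and the means followed the dose order in 94. The shares of all genes were not computed for these counts, and the rule itself sets 2000 nM above 0 nM. As a share of the log2 rise from the 0 to the 2000 nM mean, the median member had reached 38.4% at 20 nM and 80.3% at 200 nM. More than 50% was present at 20 nM in 24 members.

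The largest shares at 20 nM were 85.5% in CG14304, 79.8% in CG9503, 74.8% in CG11275, 74.4% in CG14598 and 68.1% in CG13924. CG14304 had 422, 615 and 475 normalised counts at 0 nM, 1068, 1125 and 1071 at 20 nM, 1274, 819 and 1005 at 200 nM and 1376, 1166 and 1177 at 2000 nM. All libraries with hormone were above those without it. The 200 nM libraries overlapped with those of 20 nM and of 2000 nM, while all 2000 nM libraries lay above all 20 nM libraries. The log2 fold change of 200 against 20 nM was −0.10 ± 0.13 (SE, limma adjusted p = 0.785). CG13924 had 35.3, 20.2 and 19.0 normalised counts at 0 nM, 48.9, 40.1 and 44.6 at 20 nM, 36.1, 28.4 and 34.5 at 200 nM and 57.8, 37.9 and 79.6 at 2000 nM. Its mean was lower at 200 nM than at 20 nM and the groups did not overlap, but the change did not pass the test (log2 fold change −0.43 ± 0.21 SE, limma adjusted p = 0.32).

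The smallest shares at 20 nM were 2.91% in CG5639, 3.23% in CG6118, 6.52% in CG10283, 12.2% in CG1143 and 12.5% in CG31817. CG10283 had 344, 421 and 335 normalised counts at 0 nM, 385, 399 and 455 at 20 nM, 1413, 1331 and 1435 at 200 nM and 2253, 1999.5 and 2528 at 2000 nM. Its 0 and 20 nM libraries overlapped, all others were apart, and it rose by 1.75 ± 0.08 (SE, limma adjusted p = 4.67e-07) from 20 to 200 nM. CG31817 had 47.1, 57.5 and 32.9 normalised counts at 0 nM, 48.9, 50.3 and 57.5 at 20 nM, 80.1, 73.1 and 98.4 at 200 nM and 131, 60.1 and 198 at 2000 nM, with 0.67 ± 0.18 (SE, limma adjusted p = 0.0446) for 200 against 20 nM. Its 2000 nM libraries ranged widely on both sides of the 200 nM libraries, and its call did not hold in 8 of the 15 fits made, with adjusted p-values up to 0.317.

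At 200 nM, 24 members had reached at least 90% of the rise, and 21 of these rose from 20 to 200 nM, while 8 had all 2000 nM libraries above 200 nM. The share that made this group and both counts use the same 200 nM libraries, so the counts follow in part from the grouping and are a description. The mean was higher at 200 than at 2000 nM in 4 members, CG32793, CG9503, CG7872 and CG42741. CG7872 had 296, 277 and 305 normalised counts at 0 nM, 482, 472 and 457 at 20 nM, 828, 979 and 915 at 200 nM and 865, 898 and 798 at 2000 nM, and rose by 0.94 ± 0.08 (SE, limma adjusted p = 3.60e-05) from 20 to 200 nM. CG42741 had 81.2, 92.7 and 106 normalised counts at 0 nM, 160.2, 137 and 126 at 20 nM, 169.6, 212 and 218 at 200 nM and 201, 174 and 193 at 2000 nM, with 0.50 ± 0.14 (SE, limma adjusted p = 0.0575). In both genes the 200 and 2000 nM libraries overlapped, as did those of the other two.

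At the other end, 16 members had less than 50% of the rise at 200 nM. None of these 16 passed the test of 200 against 20 nM, and in 12 of them all 2000 nM libraries were above all 200 nM libraries. Here too the grouping and both counts share the 200 nM libraries, so the counts are a description. They were CG9297, CG6118, CG4301, CG7509, CG10132, CG12071, CG4945, CG42494, CG1143, CG12825, CG15547, CG13708, CG16959, CG13924, CG14227 and CG13920. CG1143 had 48.4, 112 and 41.1 normalised counts at 0 nM, 57.3, 51.4 and 119 at 20 nM, 48.7, 55.2 and 87.2 at 200 nM and 157, 150.2 and 246 at 2000 nM. Its libraries at 0, 20 and 200 nM were interleaved, only 2000 nM lay above them, and its log2 fold change from 20 to 200 nM was −0.19 ± 0.32 (SE, limma adjusted p = 0.84). CG15547 had 203, 209 and 106 normalised counts at 0 nM, 155, 232 and 258 at 20 nM, 226, 233 and 224 at 200 nM and 394, 319 and 521 at 2000 nM. The lower 3 doses overlapped and 2000 nM was above all of them, with 0.11 ± 0.17 (SE, limma adjusted p = 0.809) for 200 against 20 nM.

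CG6118 had 14.4, 21.3 and 17.1 normalised counts at 0 nM, 13.5, 17.0 and 25.0 at 20 nM, 39.3, 10.4 and 32.5 at 200 nM and 58.4, 41.1 and 139 at 2000 nM. At 2000 nM replicate 3 was more than 2 times either of the other libraries, 200 nM replicate 2 was the lowest of all, and the change from 20 to 200 nM was 0.40 ± 0.47 (SE, limma adjusted p = 0.75). CG7509, with a synonym after the leucine-rich repeat surface proteins tartan and capricious, had 11.8, 18.1 and 12.02 normalised counts at 0 nM, 0, 29.4 and 32.5 at 20 nM, 29.8, 11.9 and 35.5 at 200 nM and 34.0, 30.03 and 103 at 2000 nM. It had no read in 20 nM replicate 1, and its SE was the largest of the members (log2 fold change 1.28 ± 1.133 SE, limma adjusted p = 0.637). The log2 fold changes of 200 against 20 nM nearest to 0 were in CG10041, CG12825, CG13708, CG13920 and CG11598. CG13920, with the synonym NACHO of a mammalian chaperone of acetylcholine receptors, had 40.6, 32.0 and 25.3 normalised counts at 0 nM, 37.1, 47.5 and 49.4 at 20 nM, 39.3, 41.8 and 46.7 at 200 nM and 72.1, 50.6 and 81.1 at 2000 nM. Its 20 and 200 nM libraries were interleaved (log2 fold change −0.06 ± 0.21 SE, limma adjusted p = 0.931).

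**Figure D4:**
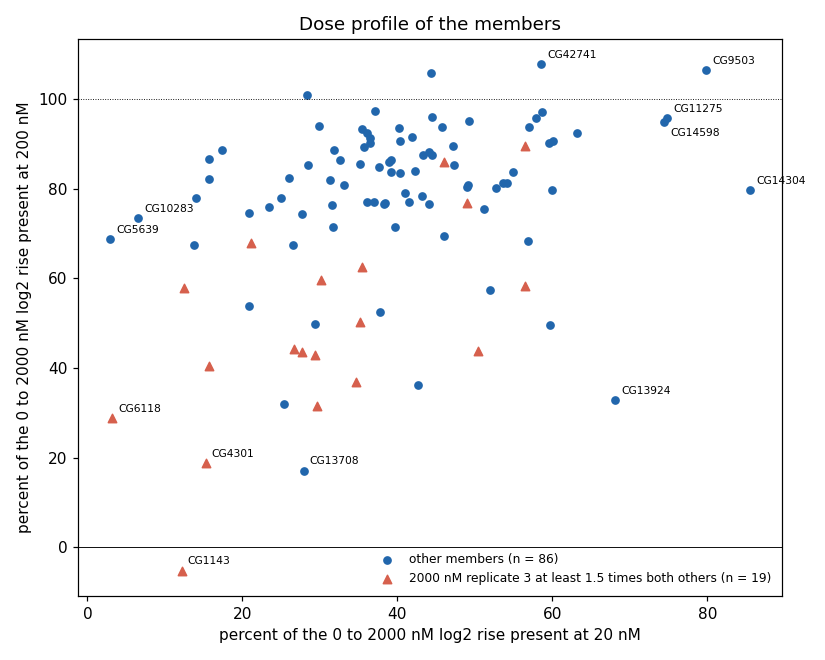
Each point is a member; the horizontal axis gives the percent of its log2 rise from the 0 to the 2000 nM mean that was present at 20 nM and the vertical axis the percent present at 200 nM. The members with a high 2000 nM replicate 3 (19 triangles) have a median of 44.2% at 200 nM against 82.9% for the others, where a high replicate 3 lowers the share by construction; without that library the medians are 66.1% and 85.0%.

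These profiles were also set against 2000 nM replicate 3, which enters the mean that each share is divided by. Of the 19 members in which it was at least 1.5 times both other libraries of that dose, 3 rose from 20 to 200 nM with a median log2 fold change of 0.40 over the 19, and of the other 86 members 65 rose with a median of 0.82. CG12071 shows the pattern, with 113, 175 and 57.5 normalised counts at 0 nM, 77.6, 169.6 and 219 at 20 nM, 192, 164 and 213 at 200 nM and 306, 188 and 573 at 2000 nM. CG4301 shows it too, with 26.2, 37.3 and 8.22 normalised counts at 0 nM, 15.2, 36.2 and 37.9 at 20 nM, 36.1, 25.4 and 32.5 at 200 nM and 65.6, 49.0 and 181 at 2000 nM. In both genes replicate 3 was far above replicates 1 and 2 of 2000 nM, and the lower 3 doses overlapped. The median of the mean counts at 2000 nM, not corrected for length, was 99.0 for the 19 and 543.5 for the others.

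Without 2000 nM replicate 3, 90 of the 105 members met the rule. The 15 that did not were CG6118, CG15673, CG7509, CG10132, CG42494, CG7131, CG10041, CG12825, CG15385, CG13924, CG30414, CG14227, CG11598, CG5953 and CG13920. Without 0 nM replicate 3, 99 met it, and 103 to 105 did without any other library of the 0 or 2000 nM groups. Of the 16 members with less than 50% of the rise at 200 nM, 9 stayed below 50% when 2000 nM replicate 3 was left out and no other member joined them. CG1143 was among these 9, with −6.30%, as were CG13708 with 20.9% and CG4301 with 30.7%. The median share at 200 nM became 83.9%.

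Markers of other cell types were summed in each library, and some moved with the dose. The 4 nerve and glia genes summed to 313 to 456 normalised counts at 0 nM, 348 to 514 at 20 nM, 521 to 645 at 200 nM and 619.6 to 781 at 2000 nM. Nearly all of this sum was elav, with 441, 332 and 304 at 0 nM and 766, 608.5 and 669 at 2000 nM. In contrast, repo and brp had at most 3.93 in any library and nSyb at most 21.8. Only 1 of the 4 genes passed the filter for 200 against 20 nM, and it was not called. Of 5 adult muscle precursor genes tested, 2 fell from 20 to 200 nM. Within 2000 nM, salivary gland genes, 4 of 7 listed being in the table, summed to 17.9, 15.8 and 37.5 in replicates 1, 2 and 3. Blood cell genes summed to 119.8, 34.8 and 46.6, fat body genes to 71.5, 142 and 87.9, and nerve and glia genes to 781, 619.6 and 692. Adult muscle precursor genes summed to 2454, 2088 and 2404, and tracheal genes to 17096, 12355 and 14926. Most of the tracheal sum was uif, with 15040, 10430 and 12890, while trh had 1895, 1781 and 1853 and btl 161, 143.8 and 182.5. The listed genes at 0 in replicate 3 were eater of blood cells, Lsp1alpha of fat body and repo of glia. At 0 nM, fat body genes summed to 390.2, 41.5 and 1638 in replicates 1, 2 and 3. The part of these RNAs in the members' values was not tested.

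The members were also set against the annotation. Their median exon length was 2240 bases and their median gene span 4216 bases, against 1805 and 2274 for the 2756 CG-numbered genes tested that had an annotation. They had a median of 4 exon blocks against 3 and 2 transcripts against 2. By chromosome arm, 17 members lay on X, 25 on 2L, 15 on 2R, 23 on 3L and 25 on 3R. The rule sets a minimum count and counts grow with transcript length, and the part of the rule in this difference was not tested.

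Members lay side by side in 6 pairs. In 3 pairs both genes rose from 20 to 200 nM, CG15282 with CG34165, CG3823 with CG15894 and CG14301 with CG31224, each on the same strand. CG34165 had 10.5, 19.2 and 21.5 normalised counts at 0 nM, 18.6, 22.05 and 33.1 at 20 nM, 62.8, 50.7 and 72.0 at 200 nM and 89.4, 101.2 and 94.6 at 2000 nM. Its 0 and 20 nM libraries overlapped and the higher doses were apart. Its neighbour CG15282 had 40.6, 47.9 and 64.5 normalised counts at 0 nM, 175, 135 and 173 at 20 nM, 879, 931 and 1273 at 200 nM and 978, 1459 and 910.1 at 2000 nM, with an overlap only between 200 and 2000 nM. The change of CG34165 was 1.323 ± 0.26 (SE, limma adjusted p = 0.0102), with an adjusted p of 0.0690 without 200 nM replicate 3. CG3823 changed by 2.08 ± 0.17 (SE, limma adjusted p = 2.66e-05) and CG15894 by 1.89 ± 0.32 (SE, limma adjusted p = 0.00395). With 13.5, 8.48 and 16.2 normalised counts at 20 nM, CG15894 passed the filter only with the help of its 200 nM libraries, which limits its p-value.

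In 2 pairs only 1 gene passed, CG8031 of the opposite-strand pair with CG11656 and CG9896 of the pair with CG42741. CG11656 had 0.73 ± 0.25 (SE, limma adjusted p = 0.127) and passed without 20 nM replicate 3 (adjusted p = 0.0378). Neither passed in the pair of CG12071 and CG15547. CG43980 and CG11249, with 1 gene between them, both rose, but CG11249 was called in only 10 of the 15 fits made, with adjusted p-values up to 0.113. Of 197 flanking genes that were not members, 120 were tested, 13 of them rose (10.8%, against 4.55% of all genes tested) and 2 fell. Among the 13 were Hr4, a nuclear receptor of the early hormone response that lies beside CG3587, with a log2 fold change of 6.07. Also among them were Np beside CG8172 with 1.44, Ppn, which codes for the matrix protein papilin, beside CG31051 with 1.09, and the chitinase gene Cht5 beside CG9297 with 1.05. CG3587 itself had 100.8, 88.4 and 94.2 normalised counts at 0 nM, 119.8, 128 and 129 at 20 nM, 385, 442 and 416 at 200 nM and 502, 667 and 545 at 2000 nM, apart in order at all doses, with 1.71 ± 0.10 (SE, limma adjusted p = 1.76e-06).

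Exons of 25 members overlapped with those of another gene, and for 5 of these on the same strand. How strand was treated in the counting is not given in the sources, so reads of such stretches cannot be told apart between the genes. The largest overlaps were 37.2% of the exon length of CG13920 with an antisense RNA, 22.4% of CG42494 with Girdin on the same strand and 16.9% of CG14439 with a non-coding RNA on the opposite strand. For CG13813 it was 5.43%, with CG17233 on the opposite strand. None of the overlapping genes that were tested passed the test of 200 against 20 nM. Over all genes tested, 4.55% were called higher and 3.92% lower, and in so few overlapping genes no call is near those shares. Some overlapping RNAs were not tested or were absent from the deposited table. The other 80 members overlapped with no other gene.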

How the data were processed

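RNA was sequenced from 12 libraries of cultured wing discs, 3 per dose. Per the labels' protocols, the libraries came from a directional poly(A) kit (NEBNext Ultra II), although total RNA is named as the molecule. The tools in the submitters' processing notes are Subread 2.0.1, DESeq2 1.32.0, HISAT2 2.1.0 and SAMtools 1.13. Genome build, annotation and strand setting: not given in the sources used here. No coordinates are printed.

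The deposited values have the unit signal, here a read count divided by the authors with 1 size factor for each library. One factor per library turned 100% of values into whole reads within 0.001, and depths are sums of those reads. Called "normalised counts" in the text, the deposited values were log2 transformed after adding 1. The 6 libraries of 20 and 200 nM were fitted with limma 3.58.1 in R 4.3.3 with no block, an intensity trend and 4 residual degrees of freedom. Genes needed at least 10 normalised counts in at least 3 of the 6 libraries, and Benjamini-Hochberg adjustment covered 8155 genes, with a threshold of 0.05. "Rose" and "fell" are used only past it. The other dose steps share libraries with the rule that chose the members and have no test. The fit was tested on simulated data. Exon lengths, neighbours and overlaps come from Ensembl 115 (BDGP6.54), and synonyms from RefSeq by locus tag.

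The members, marker lists and rules were chosen with earlier results of these data known. Members were named by rule: the 10 highest per kilobase at 2000 nM, the 10 largest by the rule, and the 10 largest and 5 nearest 0 at 200 against 20 nM. Also named were the 5 highest and 5 lowest shares at 20 nM, those at the rule's limits, neighbours and members with names. The last part took those lower at 20 than 0 or at 2000 than 200 nM by mean. Others were named after their values were seen. Alternatives covered the libraries fitted, the pseudocount, the filter, limma-voom, a replicate block, scaling to total reads (chosen after seeing the data) and leaving out each library.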

Additional observations from a re-analysis of the deposited data

How the results depend on the processing

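The 68 members called higher at 200 than at 20 nM became 63 with all 12 libraries fitted, 68 with a pseudocount of 0.5 or 5, 67 with no filter, 62 of 86 tested at a filter of 50, 70 with limma-voom and 68 with scaling to total reads, which was chosen after seeing the data. Leaving out 1 library gave 55 to 69, lowest without 200 nM replicate 3, and 50 members were called in all 15 fits. The number called lower was 0 in every one of these fits. CG13813, CG9522 and CG32793 were not tested at a filter of 50 or without a 200 nM library, since fewer libraries then passed the filter. The median log2 fold change of 0.79 moved to 0.74 with a pseudocount of 5 and 0.74 with limma-voom, and ranged from 0.69 to 0.82 when 1 library was left out, lowest without 20 nM replicate 1; the cause was not tested. Among named members, CG9503 passed with limma-voom (adjusted p = 0.0498) and CG42741 in 4 of the 15 fits. The 66 members with 20 nM above 0 nM became 67 to 87, and the 64 with 2000 above 200 nM became 68 to 75, when 1 library was left out, where fewer libraries need to be apart; with scaling to total reads they were 66 and 63. None of these results reversed. Between 20 and 200 nM, the deviations of same-numbered libraries had correlations of 0.0050, −0.053 and 0.19, and not every library correlated best with its own number. With 3 libraries per dose and no check at 0 and 2000 nM, these values cannot show that the libraries were unpaired. A fit with the replicate number as a block called 67 members higher and 0 lower, with a median of 0.79, and 757 genes in all against 691. TMM factors, edgeR and DESeq2 were planned as alternatives and were not run: whole reads could be recovered for each library and served limma-voom, but the deposited table, which stacks scaled values of all libraries in 1 column, was not treated as a count table. Depth limits the scarce members: 1 read equals up to 1.69 normalised counts, and CG9522 rests on 2 reads at 0 nM.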
